A study of Mus musculus with 6 samples.

Results

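Mitochondrial ribosomal protein genes encode the protein shell of the ribosome that works inside mitochondria. They were taken as the protein-coding genes whose symbol begins with Mrpl or Mrps followed by a digit. This rule found 78 genes, 49 named for the large subunit and 29 for the small subunit, among 21697 protein-coding genes with a count. The mitochondrial ribosome reads the few messages of the mitochondrial genome, all of which encode subunits of the respiratory chain or of ATP synthase. Its ribosomal RNAs come from the mitochondrial genome, whereas its proteins are encoded in the nucleus, made in the cytosol and imported. Cleavage-stage embryos carry mitochondria inherited from the oocyte and rely on them for much of their energy supply.

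The series compared 2-cell embryos that developed from control zygotes with 2-cell embryos from zygotes stripped of their lipid droplets, and asked which transcripts differ after lipid loss. Both groups were F1 (C57Bl/10 X CBA/H) embryos of wt genotype, cultured in fatty acid-free KSOM from 0.5 to 2.0 dpc and labelled day 2. Delipidated zygotes were exposed to cytochalasin B at 50 µg/mL and spun at 4200 × g and then, in sucrose-supplemented medium, at 9500 × g. The displaced droplets were aspirated through a laser-made opening in the zona pellucida with a pipette of 12 µm inner diameter. The labels attach this treatment text to all 6 libraries, whereas the methods call undelipidated zygotes of an inhibitor experiment non-manipulated. Whether the sequenced controls were exposed to cytochalasin B or spun was therefore not clear from the sources used here. Each of the 3 control and 3 delipidated libraries held total RNA of 3 pooled embryos. The embryos of several females had been mixed before allocation, so p-values measure the spread between these pools only. In pooled embryos, fewer or smaller cells and less RNA per cell cannot be told apart.

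The counts summed to 12164963, 16165958 and 12980787 in control libraries 1 to 3, and to 20059460, 16332103 and 14683741 in delipidated libraries 1 to 3. Genes with at least 1 count numbered 22855, 22437 and 20582 in the controls and 17091, 19408 and 20158 in the delipidated libraries. Delipidated library 1 was therefore the deepest and the one with the fewest detected genes. In that library 9.21% of the genes tested were at 0, against 2.00% to 4.14% in the other libraries. The 2-cell label was checked with a list of 10 stage markers, 9 of which were found. None of the 9 was at 0 in any library, and their summed level was 405, 151 and 352 CPM (counts relative to the scaled library total) in the controls and 234, 285 and 416 CPM in the delipidated libraries, with Zfp352 the most abundant on average over the libraries. All 10 oocyte markers were also detected in every library, with summed levels of 865 to 1421 CPM and Npm2 the most abundant on average. Markers of cell types that could adhere to the zona were summed as well, although cumulus cells had been stripped off with hyaluronidase. Cumulus and granulosa markers summed to 11.3 to 80.7 CPM, with Foxl2 and Ptx3 at 0 in all 6 libraries and Amhr2 the most abundant over the libraries. The highest sum was that of control library 3, where Cyp11a1 had 653 counts against 0 to 4 in the other libraries, and the other sums were at most 32.2 CPM. Leukocyte markers summed to 2.27 to 8.36 CPM, with Csf1r the most abundant on average. Oviduct epithelium markers summed to 90.4 to 249 CPM, most of it Epcam at 82.5 to 221 CPM. Of the rest, Foxj1 had 0 to 9 counts per library and Pax8 0 to 23. Ovgp1 had 2 to 189, Krt8 30 to 55 and Krt18 18 to 334. Whether the Epcam counts came from the embryos or from adhering cells was not tested.

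As a whole, the mitochondrial ribosomal protein genes stood at a similar summed level in both groups. Their summed CPM was 1065, 1436 and 1193 in the controls and 1383, 1232 and 1157 in the delipidated libraries. The group means were 1231 ± 188 and 1257 ± 115 CPM (SD, n = 3 each), and the ranges of the groups overlapped. Of the 78 genes, 73 passed the filter on low counts and were tested among 16020 genes, 47 of them named for the large and 26 for the small subunit. No member was called by edgeR's quasi-likelihood test at a Benjamini-Hochberg adjusted p under 0.05 and a log2 fold change beyond 1 in either direction, and over all genes tested the share called was 0%. DESeq2, run with no filter on 78 members among 30967 genes, called 0 members, beside 9 genes higher and 40 lower over all genes. At an unadjusted p under 0.05, 1 member was higher and 0 were lower in delipidated embryos, beside 1.15% of all genes higher and 1.74% lower. All delipidated libraries lay above all controls for 3 members and below them for 1, beside 3.81% and 5.05% of all genes. The estimated difference was positive for 37 members and negative for 36, and the median log2 fold change was 0.00031 for the members and -0.00073 for all genes tested. A log2 fold change beyond 1 in size was estimated for 10 members (13.7%) and for 16.6% of all genes.

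**Figure D1:**
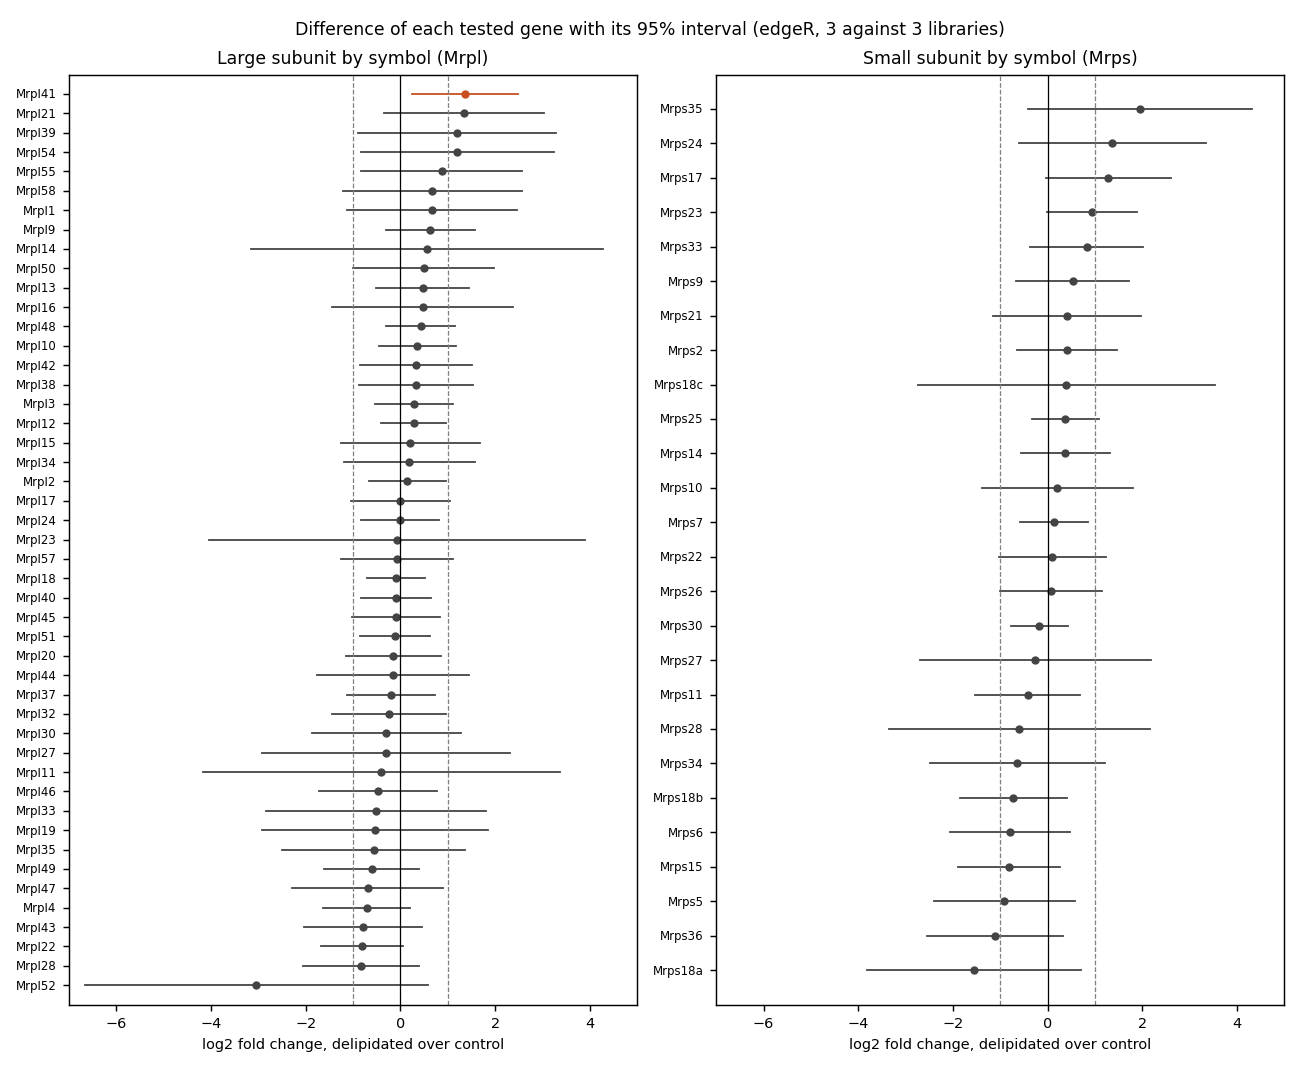
Estimated log2 fold change (points, delipidated over control, x axis) and 95% interval (lines) of the 73 tested genes, with genes on the y axis ordered by estimate within each subunit and dashed lines at a 2-fold difference. The interval of Mrpl41, drawn in orange, lies above 0, while those of the other tested genes cross 0.

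Large subunit genes lay a little below 0 and small subunit genes a little above it, with wide overlap. The median log2 fold change was -0.07 for the 47 tested genes named for the large subunit, of which 22 were positive and 25 negative. It was 0.12 for the 26 tested genes named for the small subunit, of which 15 were positive and 11 negative. The large subunit median turned positive without control library 2 (0.17), control library 3 (0.01) or delipidated library 3 (0.09). The small subunit median turned negative without control library 3 (-0.10), delipidated library 1 (-0.15) or delipidated library 2 (-0.07). The summed level of the large subunit genes was 716, 948 and 810 CPM in the controls and 922, 793 and 789 CPM in the delipidated libraries. That of the small subunit genes was 349, 488 and 383 CPM in the controls and 460, 440 and 368 CPM in the delipidated libraries. Both sums were lowest in control library 1 and highest in control library 2. The log2 ratio of the large to the small subunit sum was 1.04, 0.96 and 1.08 in the controls and 1.00, 0.85 and 1.10 in the delipidated libraries. Its group means of 1.03 ± 0.06 and 0.98 ± 0.13 (SD, n = 3 each) differed by less than the spread between the pools. The difference was -0.04, and with single libraries left out it ranged from -0.10 without delipidated library 3 to 0.02 without delipidated library 2.

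Symbols do not always give the place of the protein. Mrps30 and Mrps18a sit in the large subunit despite their names, and Mrps36 is a component of the alpha-ketoglutarate dehydrogenase complex of the citric acid cycle. With these genes placed accordingly, the medians were -0.08 for 49 tested large subunit genes and 0.20 for 23 tested small subunit genes. The log2 ratio of the sums by place was 1.54 ± 0.23 in the controls and 1.37 ± 0.12 in the delipidated libraries (SD, n = 3 each), a difference of -0.17 that lay within the spread of the controls. Mrps18a, Mrps18b and Mrps18c are related copies of a single bacterial protein, and the latter pair sits in the small subunit. Mrps18a had 10, 80 and 175 counts in the controls and 70, 9 and 34 in the delipidated libraries, with a log2 fold change of -1.56 (SE 1.03), or -0.41 without control library 3. Mrps18b had 180, 667 and 155 counts in the controls and 228, 279 and 175 in the delipidated libraries, so control library 2 alone was high. Mrps18c had 8, 73 and 19 counts in the controls and 0, 66 and 65 in the delipidated libraries, and the groups overlapped. For Mrps18b, 53.4% of the counts lay where exons of a gene on the opposite strand overlap. Mrps36 had 61, 136 and 99 counts in the controls and 60, 61 and 42 in the delipidated libraries. In CPM these were 5.15, 8.22 and 7.53 against 2.96, 3.75 and 2.96, so it was the member whose delipidated libraries all lay below the controls. Its log2 fold change was -1.11 (SE 0.65), with an adjusted p of 1.00 (edgeR, Benjamini-Hochberg).

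The only tested member with an unadjusted p under 0.05 was Mrpl41, which encodes a large subunit protein without a bacterial counterpart that has also been described as a partner of BCL2. It lies at chr2:24974117-24975098 on the minus strand of mm10 (ENSMUSG00000036850). It had 135, 162 and 53 counts in the controls and 380, 476 and 239 in the delipidated libraries. Its level was 11.4, 9.80 and 4.03 CPM in the controls and 18.8, 29.2 and 16.9 CPM in the delipidated libraries, so the groups did not overlap. The log2 fold change was 1.36 (SE 0.51, 95% interval 0.25 to 2.48), with an adjusted p of 1.00 (edgeR, Benjamini-Hochberg). The log2 fold change was 1.02 without control library 3, the lowest, and 1.08 without delipidated library 2, the highest, and in both cases the unadjusted p was no longer under 0.05. The 5 exonic parts of the gene carried 2.35% to 37.5% of its counts, and the most counted part held 53, 47 and 23 counts in the controls and 150, 189 and 80 in the delipidated libraries.

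Other members with large estimates of either sign had intervals that included 0, and all had an adjusted p of 1.00 (edgeR, Benjamini-Hochberg). Mrpl21, of the large subunit, had 33, 159 and 16 counts in the controls and 318, 213 and 83 in the delipidated libraries, with a log2 fold change of 1.34 (SE 0.77). This was 2.53 without control library 2, with an unadjusted p under 0.05, and 0.89 without control library 3. A pair of exonic parts tied as its most counted, with 19.1% of its counts each. The former by position had 3, 13 and 0 counts in the controls and 78, 47 and 16 in the delipidated libraries. Its log2 fold change was 2.81 (SE 1.27), with an unadjusted p under 0.05. Of its controls only library 2 reached the minimum count of 10, so it passed the filter through the delipidated libraries, in which it was high. This difference is a description, and nothing is drawn from its p. The latter had 0, 43 and 0 counts against 70, 44 and 0, and overlapped between groups. Mrps24, a small subunit protein at the site where the message enters, had 6, 187 and 41 counts in the controls and 102, 325 and 195 in the delipidated libraries. Its log2 fold change was 1.37 (SE 0.90), and control library 2 exceeded delipidated library 1. The estimate was 2.83 without control library 2, with an unadjusted p under 0.05, 0.84 without control library 1 and 0.91 without delipidated library 2. Without control library 2, only library 3 of the controls reached the minimum count of 10. In that fit Mrps24 passed the filter through the delipidated libraries, in which it was high, so nothing is drawn from its p there. Mrps5, another protein of the message entry site, had 105, 166 and 81 counts in the controls and 154, 29 and 55 in the delipidated libraries. Its log2 fold change was -0.91 (SE 0.68), and delipidated library 1 lay within the range of the controls in CPM. The estimate was -1.56 without that library, -0.54 without delipidated library 2 and -0.34 on the most counted part. Mrpl9, Mrps23 and Mrpl52 lay outside the rule for naming and were chosen after their values were seen. Mrpl9, of the large subunit, had 14.9, 16.9 and 8.29 CPM in the controls and 20.3, 21.4 and 20.5 CPM in the delipidated libraries. Mrps23, a small subunit protein without a bacterial counterpart, had 11.8, 14.5 and 8.67 CPM in the controls and 15.7, 25.3 and 25.9 CPM in the delipidated libraries. With Mrpl41 these were the 3 members that lay above the controls in every delipidated library. The log2 fold change was 0.63 for Mrpl9 (SE 0.43) and 0.93 for Mrps23 (SE 0.43). For Mrps23 the unadjusted p was under 0.05 with DESeq2 and at a mean count of at least 50. It was also under 0.05 without control library 2 and without delipidated library 1. Mrpl52 had the lowest estimate, at -3.04 (SE 1.65), from 13, 106 and 83 counts in the controls and 0, 27 and 0 in the delipidated libraries. Its delipidated values were at 0 in libraries 1 and 3, and library 2 exceeded control library 1. Its unadjusted p was under 0.05 with DESeq2, with edgeR and no filter, and with a replicate block. Of the delipidated libraries only library 2 reached the minimum count of 10. Where the filter was used, Mrpl52 therefore passed through the controls, in which it was high. Its difference is a description, and nothing is drawn from these p-values. Its estimate was -2.02 on the most counted part. Leaving out delipidated library 2 left 0 counts in that group, so no fold change is given and nothing is drawn from its p there. The highest estimate was that of Mrps35, at 1.95 (SE 1.08), a thinly covered gene described with the lowest levels. It was 3.34 without control library 1 and 1.10 on the most counted part. Its unadjusted p was under 0.05 without control library 1 and with DESeq2. Without control library 1, the remaining controls of Mrps35 had 5 and 8 counts, under the minimum count of the filter. In that fit the gene passed only through the libraries in which it was high. Its difference there is a description, and nothing is drawn from its p.

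Grouped by position on the ribosome, no tested member had an unadjusted p under 0.05 in the main edgeR fit. This fit used the filter and all 6 libraries, without a replicate block. In other settings this did not hold. The p of Mrpl22 at the tunnel exit was under 0.05 with DESeq2, without control library 1 and without delipidated library 2. That of Mrps24 at the message entry site was under 0.05 without control library 2 and with a replicate block. Without control library 2 it passed the filter through the delipidated libraries, in which it was high, so nothing is drawn from that p. For Mrps12 it was under 0.05 with DESeq2, with no filter, without control library 1 and without delipidated library 3. With either of these libraries left out, Mrps12 passed the filter only through the controls, in which it was high. Nothing is drawn from its p in those fits. Mrpl11 at the stalk had a p under 0.05 without delipidated library 1. Leaving that library out left 0 counts of Mrpl11 in its group, so nothing is drawn from this p. These settings were looked up after the values were seen. The 6 proteins of the central protuberance, the crown of the large subunit, had a median log2 fold change of 0.12, 3 of them being positive and 3 negative. The 4 proteins of the stalks on either side of the large subunit had a median of 0.32, 3 being positive and 1 negative. The 5 proteins listed for the tunnel exit, where the nascent chain leaves, were Mrpl22, Mrpl23, Mrpl24, Mrpl45 and Mrpl47. All were negative, with a median of -0.09 and estimates from -0.81 to -0.0023, beside 8016 negative estimates among 16020 genes tested. The list may not hold every protein near the exit. Each of these 5 genes overlapped between groups. The 45 tested genes with a bacterial homologue had a median of 0.00031, and the 28 tested genes without one had a median of -0.0045.

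Levels between genes were compared as CPM per kb of summed exonic part length. Over the 73 tested members the mean level had a median of 5.68 CPM per kb, beside 3.47 for all genes tested, and spanned 0.28 to 47.3 CPM per kb, a 168-fold range. The median was 6.06 for the large and 5.43 for the small subunit genes. The 5 highest members were Mrpl18 (47.3), Mrps30 (44.5), Mrpl12 (30.5), Mrpl40 (29.1) and Mrpl20 (28.0), in CPM per kb. A read pair over several parts was counted in each, so levels and their order also depend on how a gene is split into parts. In Mrpl20, parts of 4, 3 and 2 bp held 7.78%, 8.01% and 8.31% of the counts, and in Mrpl18 a part of 7 bp held 6.86%. Mrpl18, a protein of the central protuberance, stood at 53.2, 82.1 and 69.0 CPM in the controls and 77.5, 56.2 and 58.3 CPM in the delipidated libraries. Mrps30 stood at 93.9, 57.6 and 73.9 CPM in the controls and 66.8, 72.2 and 60.4 CPM in the delipidated libraries. Both genes overlapped widely between groups, and their order did not differ beyond the spread of the pools. Mrpl12, the stalk protein that recruits translation factors and also binds the mitochondrial RNA polymerase, stood at 30.5, 42.9 and 53.5 CPM in the controls and 58.0, 44.1 and 51.8 CPM in the delipidated libraries. Mrpl40, of the central protuberance, stood at 35.1, 37.3 and 36.8 CPM in the controls and 24.7, 33.7 and 44.1 CPM in the delipidated libraries, a closer set in the controls. Mrpl20, whose bacterial homologue acts early in assembly, stood at 16.5, 68.4 and 62.1 CPM in the controls and 38.4, 39.4 and 54.4 CPM in the delipidated libraries, with control library 1 alone low.

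The 5 lowest of the tested members were Mrpl33 (0.28), Mrps35 (0.34), Mrpl23 (0.35), Mrpl11 (0.66) and Mrpl19 (0.80), in CPM per kb. Their exonic parts summed to 2882 to 8631 bp, beside a median of 2042 bp for the 78 genes, because all annotated exons enter the length. Mrpl33 had 23, 30 and 43 counts in the controls and 24, 47 and 12 in the delipidated libraries, on 27 parts listed under an identifier joined with an overlapping gene and assigned by exon position. Mrps35 had 32, 5 and 8 counts in the controls and 75, 129 and 32 in the delipidated libraries, with control library 1 equal to delipidated library 3 in counts. Both genes were thinly covered in every library. Mrpl23, a tunnel exit protein, had 28, 48 and 0 counts in the controls and 0, 75 and 6 in the delipidated libraries. Mrpl11, at the base of the stalk, had 18, 36 and 37 counts in the controls and 99, 0 and 0 in the delipidated libraries. The 99 counts of Mrpl11 were 33 on each of 3 parts. Mrpl19 had 27, 15 and 163 counts in the controls and 163, 30 and 11 in the delipidated libraries, so a single library of each group was high.

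**Figure D2:**
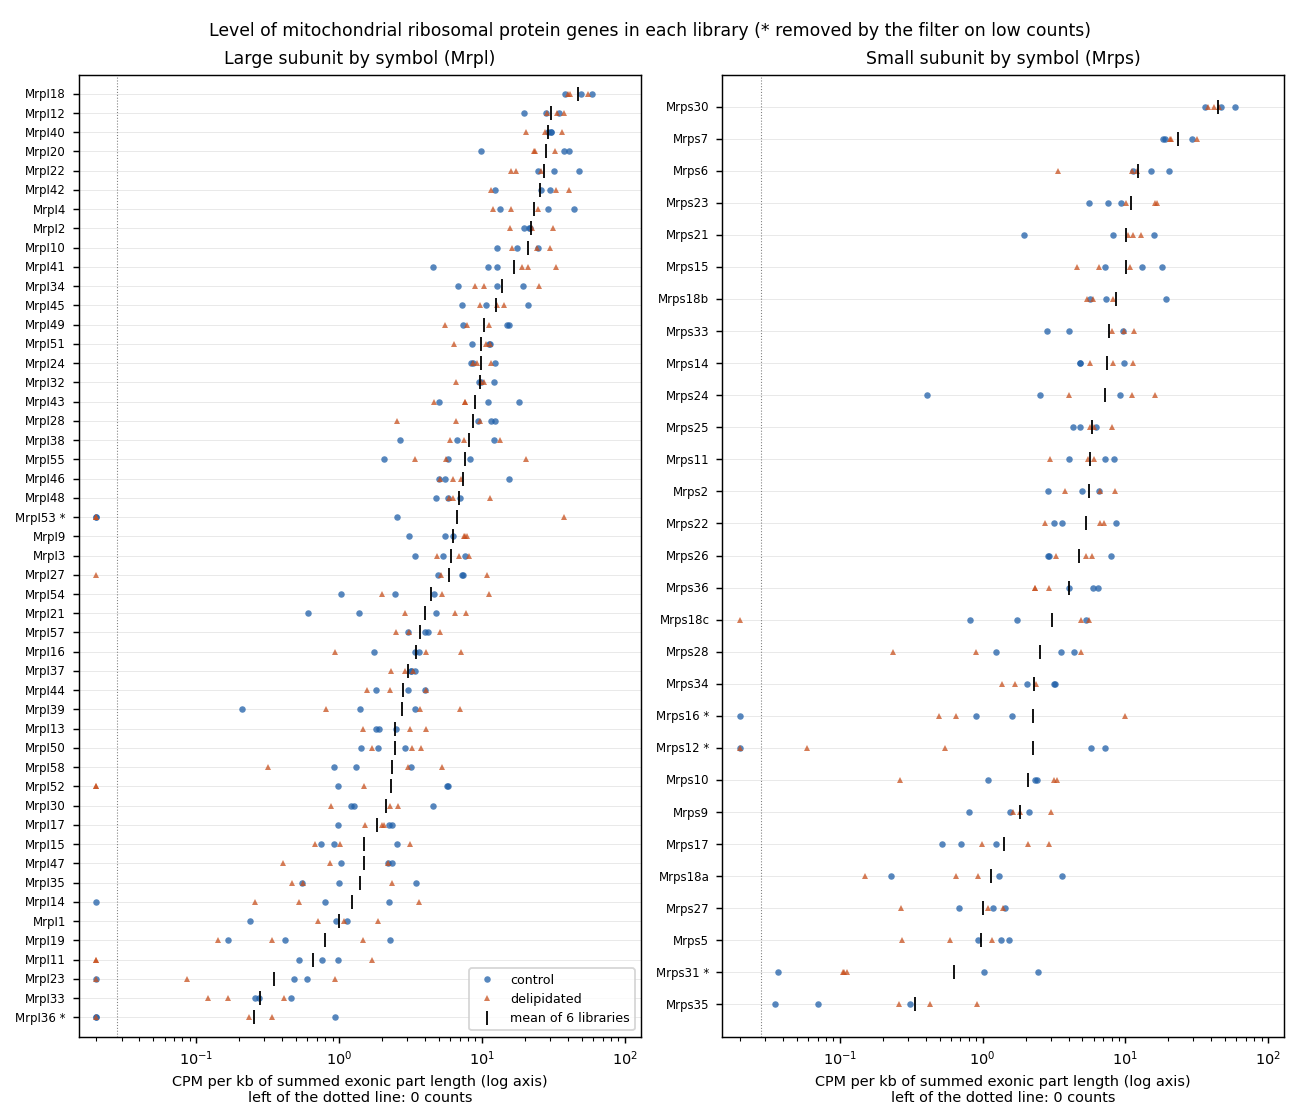
Level of all 78 genes in CPM per kb of summed exonic part length (x axis, log scale) for each control (blue circles) and delipidated library (orange triangles), with black bars at the mean of the 6 libraries. Genes on the y axis are ordered by mean within each subunit, from Mrpl18 at 47.3 down to Mrpl36 at 0.25 CPM per kb, and points left of the dotted line had 0 counts.

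The filter, which asks for a minimum count in several libraries, removed 5 members. Without it, Mrps12 and Mrps31 were lower at an unadjusted p under 0.05 by edgeR and DESeq2, and neither was called. Mrps12, whose protein lies at the decoding centre, had 0, 123 and 79 counts in the controls and 0, 1 and 8 in the delipidated libraries, so control libraries 2 and 3 were high. Mrps31 had 95, 2 and 44 counts in the controls and 7, 6 and 5 in the delipidated libraries, with control library 2 below all of the latter. Mrps16 had 6, 0 and 12 counts in the controls and 114, 6 and 4 in the delipidated libraries, with only delipidated library 1 high. Mrpl53 had 0, 4 and 0 counts in the controls and 72, 0 and 0 in the delipidated libraries, all on the only part assigned to it, of 95 bp. Mrpl36 had 0, 14 and 0 counts in the controls and 0, 5 and 3 in the delipidated libraries. The groups overlapped in each of these 5 genes.

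The spread between pools was described gene by gene. It was measured as the coefficient of variation of CPM within each group, pooled over both groups. The median over the tested members was 0.46, beside 0.44 for all genes tested, with members from 0.13 to 1.31. The median spread was smaller at higher mean counts, in members and in all genes. At mean counts of 10 to 100 the median was 0.73 for 22 members and 0.77 for all genes, and at 100 to 300 it was 0.46 for 30 members and 0.44 for all genes. At 300 to 1000 it was 0.31 for 19 members and 0.30 for all genes, and at 1000 to 3000 it was 0.19 for 2 members and 0.22 for all genes. The smallest spread belonged to Mrpl37 (0.13), with 14.2, 14.1 and 15.3 CPM in the controls and 12.9, 14.7 and 10.3 CPM in the delipidated libraries. Mrps30 (0.18), Mrpl32 (0.19), Mrps36 (0.19) and Mrps25 (0.20) came next among members with a mean count of at least 50. Mrpl32, whose maturation by a mitochondrial protease is needed for ribosome assembly, had 9.37, 7.38 and 7.60 CPM in the controls and 5.04, 7.62 and 7.98 CPM in the delipidated libraries. Mrps25, a small subunit protein without a bacterial counterpart, had 31.6, 41.0 and 28.2 CPM in the controls and 53.2, 40.0 and 37.3 CPM in the delipidated libraries.

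The largest spread at a mean count of at least 50 belonged to Mrpl19 (1.16), Mrpl35 (0.94), Mrps24 (0.90), Mrpl39 (0.89) and Mrps18a (0.86). Mrpl35, of the large subunit, had 171, 69 and 30 counts in the controls and 47, 32 and 139 in the delipidated libraries. Mrpl39, a large subunit protein that resembles a threonyl-tRNA synthetase, had 42, 142 and 7 counts in the controls and 361, 151 and 29 in the delipidated libraries. Libraries of the same group differed several-fold in both genes, and the groups overlapped. The precision that follows was limited: the median SE of the log2 fold change was 0.56 for members and 0.59 for all genes. The 95% interval lay within a 2-fold difference in either direction for 8 of the 73 members, beside 24.9% of all genes. These members were Mrpl2, Mrpl12, Mrpl18, Mrpl24, Mrpl40, Mrpl51, Mrps7 and Mrps30. For Mrps30 the interval was -0.77 to 0.42 and for Mrpl18 it was -0.71 to 0.53, so a larger than 2-fold difference lay outside the interval of these well-covered genes. For the other tested members the data left a 2-fold difference within the interval.

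**Figure D3:**
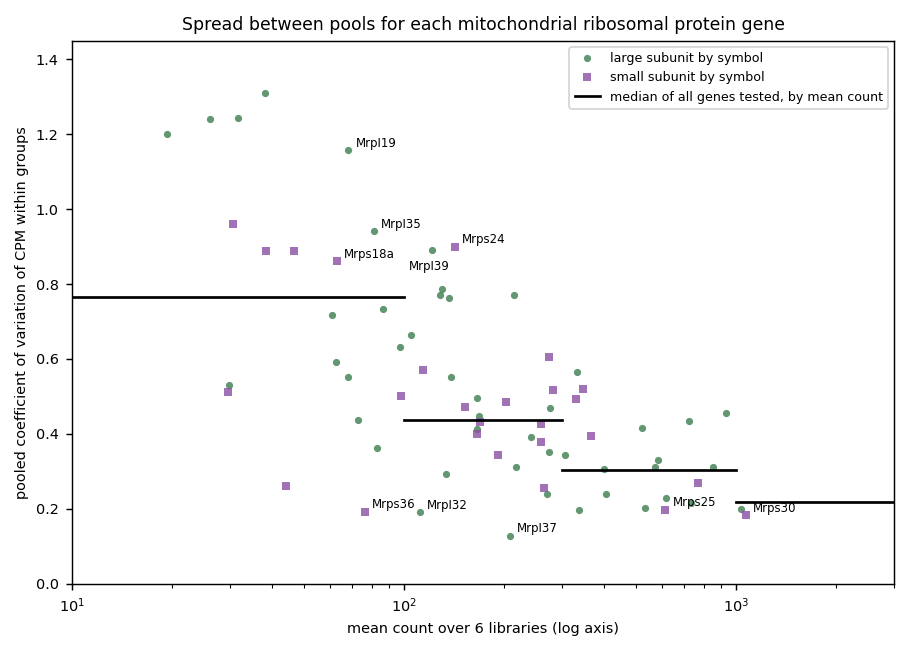
Pooled coefficient of variation of CPM within groups (y axis) against the mean count over 6 libraries (x axis, log scale) for the 73 tested members, as circles for the large and squares for the small subunit by symbol. Black lines give the median of all genes tested in each range of mean count, which falls from 0.77 at 10 to 100 counts to 0.22 at 1000 to 3000 counts, and labels name the 5 members with the smallest and the 5 with the largest spread at a mean count of at least 50.

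Libraries also differed as wholes. Among the tested members, the highest CPM was in delipidated library 1 for 25 genes (34.2%, beside 18.2% of all genes) and in control library 2 for 17 genes (23.3%, beside 17.1%). Delipidated library 1 also had 4 tested members at 0, the most of any library. The parts of members that held at least 1 count made up 62.3%, 66.0% and 56.0% of all their parts in the controls and 51.3%, 59.8% and 57.3% in the delipidated libraries. Lower detection of exonic parts therefore went with delipidated library 1, and its part in the member values was not tested beyond leaving the library out.

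Other genes of mitochondrial translation were followed in lists drawn from general knowledge. The 5 subunit proteins with other symbols had a median log2 fold change of -0.15, 2 of them being positive and 3 negative, and none had an unadjusted p under 0.05. Dap3, a small subunit protein that binds GTP, stood at 28.5, 35.7 and 25.3 CPM in the controls and 16.6, 29.4 and 34.9 CPM in the delipidated libraries. Ptcd3, a pentatricopeptide protein of the small subunit, stood at 76.8, 61.1 and 63.2 CPM in the controls and 74.2, 45.8 and 98.7 CPM in the delipidated libraries. Aurkaip1, of the small subunit, had a log2 fold change of -0.36 (SE 0.36). Chchd1, of the small subunit, had a log2 fold change of -0.55 (SE 1.16). Gadd45gip1, a large subunit protein also known as Crif1, had a log2 fold change of 0.19 (SE 0.46). All 5 genes overlapped between groups.

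Of 38 assembly and rRNA maturation factors found, 37 were tested, with 22 positive, 15 negative, a median of 0.15 and 1 gene higher at an unadjusted p under 0.05, beside 1.15% of all genes. That gene was Hsd17b10, a mitochondrial dehydrogenase that is also a subunit of mitochondrial RNase P. It had 2, 0 and 6 counts in the controls and 63, 60 and 31 in the delipidated libraries. All its controls lay under the minimum count of 10, so it passed the filter only through the libraries in which it was high, and its difference is a description. Its log2 fold change was 3.81 (SE 1.49), with an adjusted p of 1.00 (edgeR, Benjamini-Hochberg). The 14 translation factors had a median of 0.18, with 9 positive and 5 negative, and 1 gene higher at an unadjusted p under 0.05, again beside 1.15% of all genes. That gene was Tsfm, the exchange factor that recharges the elongation factor Tufm with GTP. It had 30, 55 and 50 counts in the controls and 740, 192 and 189 in the delipidated libraries, every one above the controls. Its log2 fold change was 2.67 (SE 0.59), with an adjusted p of 1.00 (edgeR, Benjamini-Hochberg). Tufm itself, chosen after its values were seen, had 17, 254 and 54 counts in the controls and 400, 270 and 131 in the delipidated libraries, with a log2 fold change of 1.12 (SE 0.75).

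The ribosomal RNAs of the mitochondrial genome were measured after a step that depletes ribosomal RNA. The small subunit RNA mt-Rnr1 stood at 8766, 7637 and 10454 CPM in the controls and 12685, 11689 and 9332 CPM in the delipidated libraries. Its log2 fold change was 0.33 (SE 0.14), with an unadjusted p under 0.05 and an adjusted p of 1.00 (edgeR, Benjamini-Hochberg), and delipidated library 3 lay within the controls. The large subunit RNA mt-Rnr2 had a log2 fold change of 0.14 (SE 0.11). Of 13 protein genes of the mitochondrial genome, the products of this ribosome, 11 were tested and none had an unadjusted p under 0.05. Of these, 10 were positive and 1 negative, at a median log2 fold change of 0.21. A subset of 4 genes noted after their values were seen, mt-Co2, mt-Atp6, mt-Nd3 and mt-Nd4l, had only 7 to 69 counts per library and SEs of 0.97 to 1.38, and the negative gene, mt-Atp6, was among them. The other 7 ranged from 0.14 to 0.36. The smallest p-values were those of mt-Cytb, with a log2 fold change of 0.36 (SE 0.20), and of mt-Nd5, with 0.29 (SE 0.17). Most of these genes share a polycistronic transcript, so their values were not independent. Several of them overlap in place or strand with their neighbours.

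The protein genes of the cytosolic ribosome gave a comparison with a larger particle. Of 83 tested, 25 were positive and 58 negative, with a median of -0.15, and all delipidated libraries lay below all controls for 8 genes and above them for 0, beside 5.05% and 3.81% of all genes. At an unadjusted p under 0.05, 1 was higher and 3 were lower, beside 1.15% and 1.74% of all genes, and none was called by edgeR. Rplp0, a stalk protein, stood at 335, 432 and 556 CPM in the controls and 322, 277 and 283 CPM in the delipidated libraries, with a log2 fold change of -0.58 (SE 0.21). The other two lower genes were Rpl36a, at a log2 fold change of -0.77 (SE 0.28), and Rps12, at -0.65 (SE 0.29). The higher gene was Rps27, at a log2 fold change of 0.96 (SE 0.38). The difference between these genes and the mitochondrial set was not tested. Many cytosolic ribosomal protein genes have near-identical pseudogenes, and uniquely mapped reads count them with uncertainty. Of 5 annotated pseudogenes of the mitochondrial set, the highest count in any library was 27, for Mrps36-ps1 in control library 2.

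Promoter letters, which the choice of symbols did not use, were compared as well. RefSeq promoters of 300 bases (GRCm38.p6, before and just after the gene start) matched 69 members by symbol with 75 promoters, and 9 members had none. A set of 3 motifs known from promoters of nuclear genes for mitochondrial proteins was searched on both strands. The letters CCGGAAG, the core bound by ETS factors such as the GA-binding protein, were in 34.7% of the member promoters, 8.86% of all 32851 promoters and 11.6% of those of protein-coding genes. The letters AAGATGGC, the YY1 motif, were in 16.0% of the member promoters, 2.75% of all promoters and 3.05% of those of protein-coding genes. The letters GCATGCGC, a core of the NRF1 motif, were in 10.7% of the member promoters, 2.71% of all promoters and 3.51% of protein-coding ones. At least 1 of these motifs was in 50.7% of the member promoters and 13.3% of all promoters, and no member promoter held all 3. Such a match describes the letters in this window and not a bound site, and the promoters of Mrpl41, Mrps30 and Mrps36 held none of the motifs. The following promoters are shown because each carries a motif in a member described above: Mrpl18 has the highest level, Mrpl37 the smallest spread, and Mrps18b holds both the ETS and the NRF1 letters. They lie at chr17:12916042-12916341, chr4:107066817-107067116 and chr17:35916391-35916690, all on the minus strand, written 5′ to 3′ with the motif letters of either strand in capitals.
Mrpl18: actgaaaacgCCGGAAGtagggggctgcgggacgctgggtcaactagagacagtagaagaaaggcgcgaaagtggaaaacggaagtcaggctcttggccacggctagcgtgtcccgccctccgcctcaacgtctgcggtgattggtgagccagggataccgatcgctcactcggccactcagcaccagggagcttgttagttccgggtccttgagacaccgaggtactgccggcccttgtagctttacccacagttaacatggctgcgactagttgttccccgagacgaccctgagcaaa
Mrpl37: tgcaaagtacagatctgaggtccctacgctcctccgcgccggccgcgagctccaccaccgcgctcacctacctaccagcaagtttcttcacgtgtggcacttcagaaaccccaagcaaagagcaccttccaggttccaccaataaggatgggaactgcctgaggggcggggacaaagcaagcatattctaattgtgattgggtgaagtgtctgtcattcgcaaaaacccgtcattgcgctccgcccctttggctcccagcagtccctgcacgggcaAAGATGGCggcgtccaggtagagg
Mrps18b: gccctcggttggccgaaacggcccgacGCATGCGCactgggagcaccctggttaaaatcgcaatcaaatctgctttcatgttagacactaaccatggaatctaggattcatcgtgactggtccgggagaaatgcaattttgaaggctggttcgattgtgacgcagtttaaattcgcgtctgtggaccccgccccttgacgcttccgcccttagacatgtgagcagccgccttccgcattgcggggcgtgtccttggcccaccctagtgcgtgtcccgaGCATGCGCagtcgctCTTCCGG
In Mrpl18 the capitals mark the ETS letters and in Mrpl37 the YY1 letters. In Mrps18b they mark the NRF1 letters at both of their positions and, at the very end, the ETS letters read on the other strand.

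Some members lie over other genes. For 8 members all parts were listed under identifiers joined with an overlapping gene and were assigned where only the exons of the member lay: Mrpl3, Mrpl33, Mrpl51, Mrpl53, Mrps6, Mrps18c, Mrps24 and Mrps34. Over 10% of the counts lay on parts overlapped by a gene on the opposite strand for 19 members, and over 50% for 5 members, namely Mrpl47, Mrpl48, Mrpl49, Mrps18b and Mrps34. The kit keeps strand, but 6 pairs of exonic parts with identical positions and opposing strands, each with at least 100 counts, had a median count ratio of 1.00. Counting did not separate the strands in these pairs, and reads of a gene and its antisense partner cannot be told apart. Mrpl48, of the central protuberance and chosen after its values were seen, was 1 such gene, with 61.6% of its counts on overlapped parts and a log2 fold change of 0.43 (SE 0.33).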

How the data were processed

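Total RNA of 6 libraries of pooled embryos was sequenced without prior RNA extraction, after ribosomal RNA depletion and strand-specific cDNA synthesis. According to the submitters' processing notes and the study's methods, reads were trimmed with Trimmomatic (v0.36), aligned with STAR (v2.5.2b; mm10) and counted with featureCounts as unique reads within exons. The deposited values were raw counts per exonic part (425461 per library), which were summed per gene. Parts with joined identifiers (33309) were assigned where they overlapped the exons of only a single one of the joined genes (GENCODE annotation). The parts left out held 2.49% to 2.57% of the counts.

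Genes were filtered with filterByExpr (minimum count 10, minimum total count 15), scaled by TMM and compared with edgeR (v4.0.16, R v4.3.3) by the quasi-likelihood test without covariates, p-values being two-sided and Benjamini-Hochberg adjusted over 16020 genes. CPM used the TMM-scaled totals, and intervals used the t distribution with 11.5 degrees of freedom. The procedure was tested on simulated data. DESeq2 (v1.42.0), other filters, scalings, treatments of parts, a replicate block and leaving out each library were alternatives.

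Members and lists were chosen with earlier results of these data known, and the central protuberance group was revised after its values were seen. Genes were named if they had an unadjusted p under 0.05, the 5 highest or lowest levels, the 5 largest or smallest spreads or the 3 highest or lowest log2 fold changes (the latter rules at a mean count of at least 50), if the filter removed them or if symbol and place differ. Of other lists, all genes were named for up to 6 genes, otherwise those with an unadjusted p under 0.05 or the 2 with the smallest p. Members listed for meeting a stated limit, such as an interval or a share of overlapped counts, were also named after their values were seen.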

Additional observations from a re-analysis of the deposited data

How the results depend on the processing

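No member was called in any of 15 alternative settings. The estimates of Mrpl21, Mrpl41, Mrpl52, Mrps5, Mrps18a, Mrps24, Mrps35 and Mrps36 kept their sign in the 14 or 15 settings that gave them. Most of these genes were named for large estimates in the same libraries, so a kept sign was likely beforehand and is a description. For Mrpl52 the settings include the fit without delipidated library 2, which left 0 counts in that group. Over all genes, DESeq2 with no filter called 9 higher and 40 lower and edgeR with no filter 5 and 25, while the median log2 fold change of all genes moved to -0.17 and -0.18. At an unadjusted p under 0.05, members numbered 4 higher and 4 lower with DESeq2, 4 lower with no filter, 2 higher at a mean count of at least 50, 2 higher on the most counted part (Mrpl41 and, on the former of its tied parts, Mrpl21) and 0 to 6 higher and 1 to 2 lower with single libraries left out. Mrpl52, Mrps12 and Mrps31 were among those lower with no filter, by either tool. The tied part of Mrpl21 passed the filter through the delipidated libraries, in which it was high, and nothing is drawn from its p. Over all genes, the share at such a p in both directions together was 4.35% with DESeq2 and 3.92% with no filter. It was 3.18% at a mean count of at least 50 and 2.47% on the most counted part. With single libraries left out it was at most 5.61%, without delipidated library 3. Without control library 2, where 6 of 75 members were higher and 1 lower, it was 3.43%. Among those members, Mrps24 and Mrps31 passed the filter through the group in which each was high, so nothing is drawn from their p-values. The median log2 fold change of the members ranged from -0.13 to 0.17, that of the large subunit from -0.13 to 0.17 and that of the small subunit from -0.15 to 0.22, with the extremes of each on leaving out delipidated library 1 or control library 2. The median spread was 0.44 at a mean count of at least 50, 0.54 on the most counted part and 0.42 to 0.49 with single libraries left out. The difference of the large to small subunit log2 ratio was -0.04, -0.17 with subunits by place and -0.10 to 0.02 with single libraries left out. The replicate numbers did not pair the libraries (correlations of same-numbered deviations -0.08, 0.07 and 0.04). With them as a replicate block, 3 members were higher and 1 lower at an unadjusted p under 0.05. The share of all genes at such a p was 2.53% in both directions together. In that fit 0 members were called, the large subunit median was 0.04 and the small subunit median -0.02. Mrps24 stood at 2.01, Mrpl21 at 1.73 and Mrpl52, the lower member, at -5.11. Mrpl52 passed the filter through the controls, in which it was high, so its value is a description and nothing is drawn from its p. The causes of these shifts were not tested. The 22 members with a mean count of 10 to 100 had a median spread of 0.73, and the part of depth in it was not tested.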
